A study of Homo sapiens with 20 samples.

Results

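BTG1, BTG2, BTG3, TOB1 and TOB2 form the BTG and TOB family of antiproliferative genes, and their mRNAs were followed here in the neuroblastoma line NGP, derived from a human tumour, with and without nutlin-3. The 5 genes were taken by their names in the GENCODE annotation, by a rule that sets no threshold on their values, and the estimated counts of all their transcripts were summed. All 5 were among the 27697 genes tested (mRNAs and lncRNAs with at least 1 count in each condition). The family member BTG4, which the rule does not include, held no count in the vehicle samples and at most 1 count in any nutlin sample, was not tested, and was not detectable at this depth in the vehicle samples.

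The dataset holds 20 poly(A) RNA-seq samples, 10 of NGP cells given nutlin-3 (8 µM of the racemic mixture) and 10 of NGP cells that received the vehicle, ethanol. Nutlin-3 occupies the p53 pocket of MDM2, the ubiquitin ligase of p53, and so lets p53 accumulate. The duration of the treatment is not given in the sources used here. The samples are described as biological replicates of 1 cell line, grown in 6-well flasks.

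BTG and TOB proteins share a conserved amino-terminal BTG domain that binds CNOT7 and CNOT8, the deadenylase subunits of the CCR4-NOT complex. Through this contact they bring the complex to mRNAs, whose poly(A) tails are then shortened. TOB1 and TOB2 carry a longer carboxy-terminal region that binds the cytoplasmic poly(A)-binding protein PABPC1. BTG2 is a well-known transcriptional target of p53, and BTG1 and BTG2 are known for holding lymphocytes in quiescence.

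Total estimated counts lay between 14455477 and 19532971 in the vehicle samples and between 15078052 and 17442896 in the nutlin samples. The p53 targets MDM2 and CDKN1A, which check the labels, rose with a log2 fold change (LFC, nutlin over vehicle) of 4.51 ± 0.0703 (SE) and 5.68 ± 0.145. The 9 neuroblastoma markers summed to between 3174 and 3852 TPM (a level scaled by length and depth) in the vehicle samples and to between 2870 and 3455 TPM in the nutlin samples. Among them TH and GATA3 rose by LFC 0.62 and 0.39, MYCN changed by LFC -0.41, and in all 2 of the 9 rose, 5 fell and 2 did not pass the test. The 8 markers of blood, endothelial, epithelial and glial cells summed to between 2.63 and 4.64 TPM in vehicle and between 5.62 and 7.24 TPM in nutlin. Of these markers 7 were tested, of which 3 rose, 1 fell and 3 did not pass, and CD3E was at 0 in every sample. LYZ had the highest level of these genes, with a mean of 1.91 TPM in vehicle and 4.05 TPM in nutlin. The part of these markers in the results below was not tested.

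The promoters of BTG1 and BTG2 are shown first, because in each of them a second, divergent gene starts within the same window and both genes were measured. The sequences are from RefSeq (GRCh38.p14), 250 bases before to 50 bases after the annotated start, 5′ to 3′ on the strand of the gene. Capitals mark the run between the start of the mRNA and the start of the lncRNA on the other strand. BTG1 lies on the minus strand (window chr12:92145797-92146096), and the RefSeq start of BTG1-DT is 239 bases away. BTG2 lies on the plus strand (window chr1:203305269-203305568), and the RefSeq start of BTG2-DT is 194 bases away.
BTG1: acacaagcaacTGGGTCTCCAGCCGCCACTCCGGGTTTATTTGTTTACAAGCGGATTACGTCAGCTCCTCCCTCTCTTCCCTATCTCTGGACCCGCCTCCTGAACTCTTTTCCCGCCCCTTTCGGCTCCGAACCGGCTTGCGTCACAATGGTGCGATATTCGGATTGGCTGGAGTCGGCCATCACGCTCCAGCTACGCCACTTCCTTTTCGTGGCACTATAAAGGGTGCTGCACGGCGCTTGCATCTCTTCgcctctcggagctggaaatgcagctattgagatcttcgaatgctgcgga
BTG2: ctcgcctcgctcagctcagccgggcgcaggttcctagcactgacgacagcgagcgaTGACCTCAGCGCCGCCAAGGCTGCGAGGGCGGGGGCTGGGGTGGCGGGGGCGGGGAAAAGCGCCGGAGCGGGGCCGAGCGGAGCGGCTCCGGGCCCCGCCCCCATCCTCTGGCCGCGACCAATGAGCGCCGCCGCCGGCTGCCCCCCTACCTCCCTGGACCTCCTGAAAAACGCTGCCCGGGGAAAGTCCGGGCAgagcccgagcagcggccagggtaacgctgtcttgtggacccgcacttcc
Another lncRNA, TOB1-AS1, starts 325 bases from the downstream start of TOB1, outside the window of that gene.

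The p53 response element was searched for in these windows because nutlin-3 acts on p53. The full consensus of 20 bases, made of 2 decamers with no spacer, was compared with every position on both strands. RefSeq windows were found for all 5 genes, among 35116 windows of the same length. The best match of each gene is printed with the matching bases in capitals, on the strand of the gene.
BTG1, chr12:92146055-92146074: ccGCcAcTCCGGGtTTaTTT
BTG2, chr1:203305505-203305524: GGGaAAGTCCGGGCAgagCC
BTG3, chr21:17613088-17613107: cGcCAgGCTCAGGgTAGggC
TOB1, chr17:50866539-50866558: GGGgcAGgCgGGACTTGgCC
TOB2, chr22:41446901-41446920: GAAgTAGTCCcGGCcgGgCC
BTG2 had the closest match of the 5 genes, 16 of 20 bases across its start site, a score that 26.0% of all windows reached. TOB1 (at its downstream start) and TOB2 matched at 15 bases, as 70.5% of windows did at least. BTG1 and BTG3 matched at 14 bases, each with 3 equal matches of which 1 is shown, and 97.4% of windows did so. The upstream start of TOB1 also matched at 14 bases. No window of the 5 genes held an exact decamer of the consensus. Only 6.6% of all windows did, so its absence from these few windows hardly sets them apart. Sequence outside these windows was not searched. A match is a description of letters only, and binding was not measured.

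After nutlin, 4 of the 5 genes rose and TOB2 fell. The call rule was the edgeR quasi-likelihood (QL) test at 5% FDR, which called 58.8% of all genes tested, 32.3% as higher and 26.5% as lower after nutlin. Among the mRNAs alone 70.9% were called, 32.4% as higher and 38.5% as lower. A call by itself was therefore common in this dataset, and the sizes of the changes are given below gene by gene. Levels of single genes are given as CPM, the counts scaled to a common library size after TMM normalization. In bulk RNA, a change in all cells and a change in the number of cells with a high level cannot be told apart.

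BTG1 encodes a founding member of the family, first found at a translocation breakpoint in B-cell leukaemia (ENSG00000133639, chromosome 12, 92140278 to 92145846, minus strand, GRCh38). It had a lowest, median and highest value of 17.3, 19.8 and 22.4 CPM in the vehicle samples and of 31.9, 39.3 and 44.5 CPM in the nutlin samples. Every nutlin sample lay above every vehicle sample. The fold change was 1.97 (LFC 0.98 ± 0.0614 SE, edgeR QL FDR = 1.36e-14, n = 10 per condition), and 16.6% of the mRNAs had a higher LFC.

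BTG2 encodes the closest relative of BTG1, an early response gene (ENSG00000159388, chromosome 1, 203305491 to 203309602, plus strand). The vehicle samples had a lowest value of 13.0, a median of 14.9 and a highest value of 18.0 CPM. In the nutlin samples these were 194, 205 and 216 CPM. The groups were far apart, with the lowest nutlin sample more than 10 times the highest vehicle sample. BTG2 rose 13.3-fold (LFC 3.74 ± 0.0475 SE, edgeR QL FDR = 6.08e-31), and only 1.30% of the mRNAs had a higher LFC. The spread between nutlin replicates was small, with a coefficient of variation (CV) of 3.29% against 11.1% in vehicle. These CVs rest on unlike counts, with a mean of 233 estimated counts in vehicle and 3195 in nutlin, and their difference was not tested.

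BTG3, also known as ANA, encodes a family member that is induced by genotoxic stress (ENSG00000154640, chromosome 21, 17593653 to 17612945, minus strand). Its values were 35.8, 39.8 and 44.9 CPM (lowest, median, highest) in vehicle and 43.3, 48.8 and 54.5 CPM in nutlin. The groups overlapped, since 8 of the 10 nutlin samples lay above all vehicle samples and all 10 lay above the vehicle median. BTG3 rose 1.21-fold (LFC 0.28 ± 0.0464 SE, edgeR QL FDR = 6.10e-06), and 37.3% of the mRNAs had a higher LFC. In TPM the groups did not overlap, with the lowest nutlin sample at 42.3 TPM and the highest vehicle sample at 41.6 TPM.

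TOB1 encodes the transducer of ERBB2, the first TOB protein described (ENSG00000141232, chromosome 17, 50862223 to 50867978, minus strand). The lowest, median and highest vehicle samples were at 19.8, 21.8 and 23.7 CPM. The nutlin samples ran from 75.2 over a median of 83.3 to 94.1 CPM. All nutlin samples lay above all vehicle samples. TOB1 rose 3.86-fold (LFC 1.95 ± 0.0451 SE, edgeR QL FDR = 3.88e-25), and 6.20% of the mRNAs had a higher LFC.

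TOB2 encodes the paralogue of TOB1 (ENSG00000183864, chromosome 22, 41433494 to 41446801, minus strand). It was at 38.4, 43.8 and 52.1 CPM (lowest, median, highest) in vehicle and at 34.6, 37.1 and 42.2 CPM in nutlin. The groups overlapped, with 8 of 10 nutlin samples below all vehicle samples and all 10 below the vehicle median. TOB2 decreased to 0.844 of the vehicle level (LFC -0.25 ± 0.0491 SE, edgeR QL FDR = 7.53e-05), and 63.8% of the mRNAs had a higher LFC. With an offset for effective length the LFC was -0.16 (edgeR QL FDR = 0.00974), a smaller decrease that still passed the test.

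In all, 3 of the 5 genes (BTG1, BTG2 and TOB1) had groups that did not overlap in CPM, against 28.8% of all genes tested and 40.2% of the mRNAs tested. The median LFC of the 5 genes was 0.98, against 0.19 over all genes and -0.0056 over the mRNAs. None of the 20 fits that left out 1 sample changed a call or a direction for these genes. Processed pseudogenes of the family held few counts. BTG1P1 held 4 counts in all vehicle samples together and 7 in all nutlin samples, TOB2P1 held 44 and 39, and BTG3P1 held none.

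**Figure D1:**
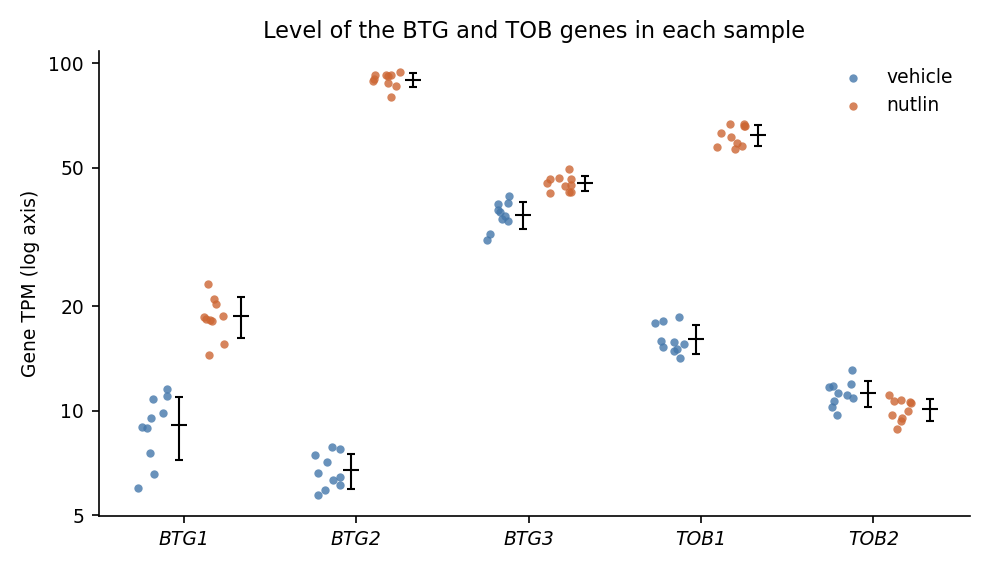
TPM of each gene (log axis) in the 10 vehicle and 10 nutlin samples; points are samples, and the black bars beside them are the mean and SD. BTG2 moved from the lowest mean of the 5 genes in vehicle (6.73 TPM) to the highest in nutlin (89.7 TPM), while TOB2 stayed between 8.85 and 13.1 TPM.

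Levels of different genes were compared per length, on the TPM summed over the transcripts of a gene. In vehicle the order was BTG3 (36.6 ± 3.31 TPM, SD, n = 10), TOB1 (16.1 ± 1.53), TOB2 (11.2 ± 0.954), BTG1 (9.10 ± 1.88) and BTG2 (6.73 ± 0.763). In nutlin it was BTG2 (89.7 ± 4.25 TPM), TOB1 (62.1 ± 4.19), BTG3 (45.1 ± 2.28), BTG1 (18.7 ± 2.50) and TOB2 (10.1 ± 0.730). BTG2 thus went from the last place to the first and TOB2 from the third to the last. Neighbours in these orders were compared within samples by an exact two-sided paired permutation test over 8 pairs. Pairs ordered alike in all 10 samples had a raw p of 0.00195, the smallest that this exact test can give. Each of the 8 neighbouring pairs differed, with adjusted p between 0.00260 and 0.00977. In vehicle, however, the ranges of TOB2 and BTG1 overlapped, with TOB2 higher in 9 of 10 samples, as did those of BTG1 and BTG2, with BTG1 higher in 8 of 10.

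The order depended on which transcripts were counted. With transcripts of the type protein_coding only, BTG1 had 4.13 ± 0.415 TPM in vehicle and 7.97 ± 1.11 TPM in nutlin and was the lowest of the 5 genes in both. TOB1 was then at 10.6 ± 1.23 and 39.4 ± 3.51 TPM, BTG2 at 5.86 ± 0.572 and 76.3 ± 3.34 TPM, and BTG3 at 33.5 ± 2.14 and 40.4 ± 2.51 TPM. Under this choice 4 of the 8 neighbouring pairs changed places. BTG2 was above BTG1 in vehicle and TOB2 above BTG1 in nutlin, both with an adjusted p of 0.00260 in the exact paired test. TOB2 over TOB1 in vehicle (adjusted p = 0.263, exact paired test) and BTG3 over TOB1 in nutlin (adjusted p = 0.432, exact paired test) did not pass this test of the within-sample ratios.

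Summed over the 5 genes, the family had 79.8 ± 4.26 TPM in vehicle and 226 ± 8.11 TPM in nutlin. BTG3 made up 45.9% ± 2.96 of this sum in vehicle, the largest share, and between 18.5% and 22.5% (median 19.8%) in nutlin. BTG2 made up 8.47% ± 1.13 in vehicle and 39.7% ± 1.45 in nutlin, where it was the largest share. TOB1 stood at 20.2% ± 2.01 and 27.5% ± 1.35. TOB2 went from 14.1% ± 1.14 to 4.47% ± 0.254 and BTG1 from 11.4% ± 2.04 to 8.26% ± 0.922. The shares of BTG2 and TOB1 therefore rose, and those of BTG3, TOB2 and BTG1 fell. The levels of BTG3 and BTG1 themselves rose. This is a description of these levels with no test of its own.

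The 5 genes were then compared in their response. For each of the 10 pairs, the log2 ratio of the 2 TPM values within a sample (pseudocount 0.5) was compared between the conditions by a two-sided permutation test. Every pair differed, with adjusted p between 1.43e-05 and 4.00e-05, and the smallest raw p, 1e-05, is the smallest that 100000 resamples can give. BTG2 differed most from TOB2, by 3.79 ± 0.0606 SE on the log2 scale, with a 95% confidence interval of 3.66 to 3.92. For the closest relatives BTG1 and BTG2, the log2 ratio of BTG1 over BTG2 decreased by 2.63 ± 0.122 after nutlin.

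The paralogues TOB1 and TOB2 differed by 2.06 ± 0.0676 (interval 1.92 to 2.21), with TOB1 the higher in response. BTG2 also responded more than TOB1, by 1.73 ± 0.0785 (interval 1.56 to 1.90). The closest responses were those of BTG3 and TOB2, which differed by 0.45 ± 0.0673 (interval 0.302 to 0.590), and those of BTG1 and BTG3, which differed by 0.71 ± 0.120 (interval 0.461 to 0.968). The per-sample ratios of the conditions overlapped for these last 2 pairs and for BTG1 with TOB1, and did not overlap for the other 7 pairs.

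**Figure D2:**
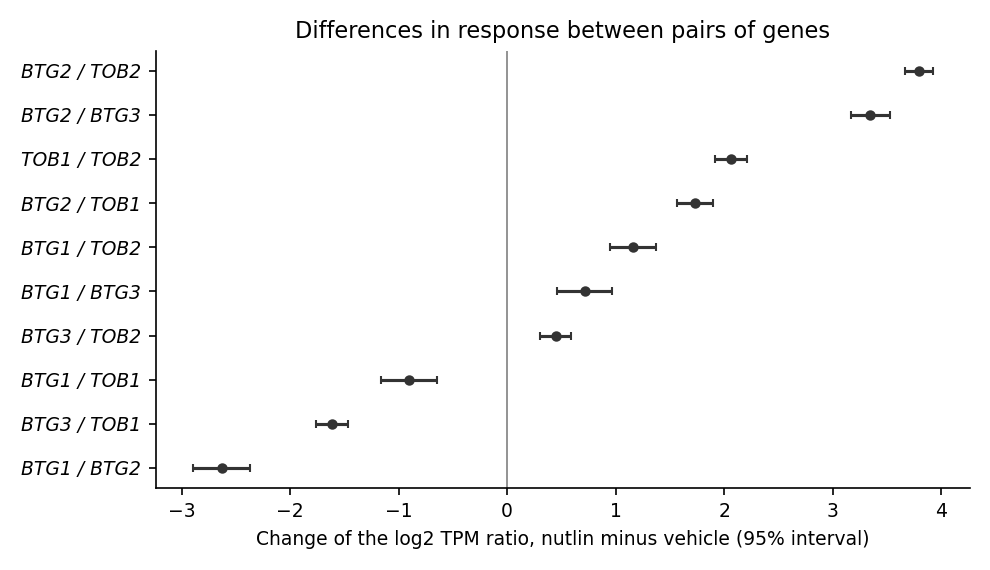
Change of the within-sample log2 TPM ratio of each pair of genes, nutlin minus vehicle, as points with 95% confidence intervals over 10 samples per condition. No interval reaches 0; the values run from -2.63 for BTG1 over BTG2 to 3.79 for BTG2 over TOB2, and the value closest to 0 is 0.45 for BTG3 over TOB2.

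At the level of transcripts, the files held 15 of the 16 transcripts annotated for the 5 genes. The share of a gene's estimated counts was tested for the 13 transcripts with a mean of at least 10 counts in a condition, by a two-sided permutation test with adjustment over the 13. In BTG1, BTG2 and TOB2 the 2 tested shares add up to the whole gene, so that each pair gives the same test with opposite signs. The shares are kallisto estimates among overlapping transcripts and no error of the assignment was used. No share within BTG1, BTG2 or TOB1 passed the test in all 20 samples. BTG2-201, the transcript that encodes the full protein, held 93.9% ± 3.94 of the BTG2 counts in vehicle and 92.9% ± 0.731 in nutlin (adjusted p = 0.508, permutation test). The remainder was on BTG2-202, annotated as a target of nonsense-mediated decay, with a mean of 14.5 counts in vehicle and 229 in nutlin.

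BTG1-201, the coding transcript, held 91.6% ± 3.11 of the BTG1 counts in vehicle and 90.6% ± 1.14 in nutlin (adjusted p = 0.508, permutation test). The other BTG1 transcript, BTG1-202, of 504 bases and without a defined coding sequence, took 8.42% ± 3.11 of the counts in vehicle, yet 4.96 TPM of the gene's 9.10 TPM because it is short. TOB1 was spread over 3 transcripts. TOB1-202 held 58.3% ± 9.19 of its counts in vehicle and 58.0% ± 8.07 in nutlin, TOB1-201, which starts upstream, 24.1% ± 7.14 and 22.7% ± 5.54, and TOB1-203, without a defined coding sequence, 17.6% ± 5.21 and 19.3% ± 3.07. None of the 3 shares of TOB1 passed the test, with adjusted p between 0.508 and 0.934. Without vehicle replicate 11, where the share of TOB1-203 was 31.7%, that of TOB1-203 was 3.24 points higher after nutlin in place of 1.69 and passed (adjusted p = 0.0367, exact permutation test), whereas no other sample left out gave a call within TOB1.

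Shares of BTG3 and TOB2 transcripts changed. BTG3-202, the main coding transcript, had a lowest, median and highest share of 79.3%, 84.9% and 89.7% in vehicle and of 73.7%, 78.9% and 85.4% in nutlin. The groups overlapped, with 9 of 10 nutlin samples below the vehicle median. The share fell by 5.41 percentage points (SE 1.44, adjusted p = 0.0161, permutation test), while that of BTG3-201, with 1 exon more, rose by 3.84 points (SE 1.19, adjusted p = 0.0184) from 9.97% ± 2.57 to 13.8% ± 2.75. BTG3-203 rose by 0.71 points (SE 0.268, adjusted p = 0.0380), but it did not pass as a share of TPM (adjusted p = 0.0665) or in 12 of the 20 tests that left out 1 sample. TOB2-202, a shorter coding transcript, rose from 1.25% ± 0.830 to 2.64% ± 0.944 of the TOB2 counts (adjusted p = 0.0161, permutation test), on means of 8.30 and 15.2 counts. As shares of TPM, which weigh short transcripts more, the rise of TOB2-202 was 7.90 points (adjusted p = 0.0166) in place of 1.39, and BTG3-202 changed by -7.03 points (adjusted p = 0.0143). None of these changes passed the test in the 16 samples whose replicate numbers occur in both conditions (8 per condition), an alternative added after the data were seen, with adjusted p between 0.143 and 0.215 in the exact permutation test.

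**Figure D3:**
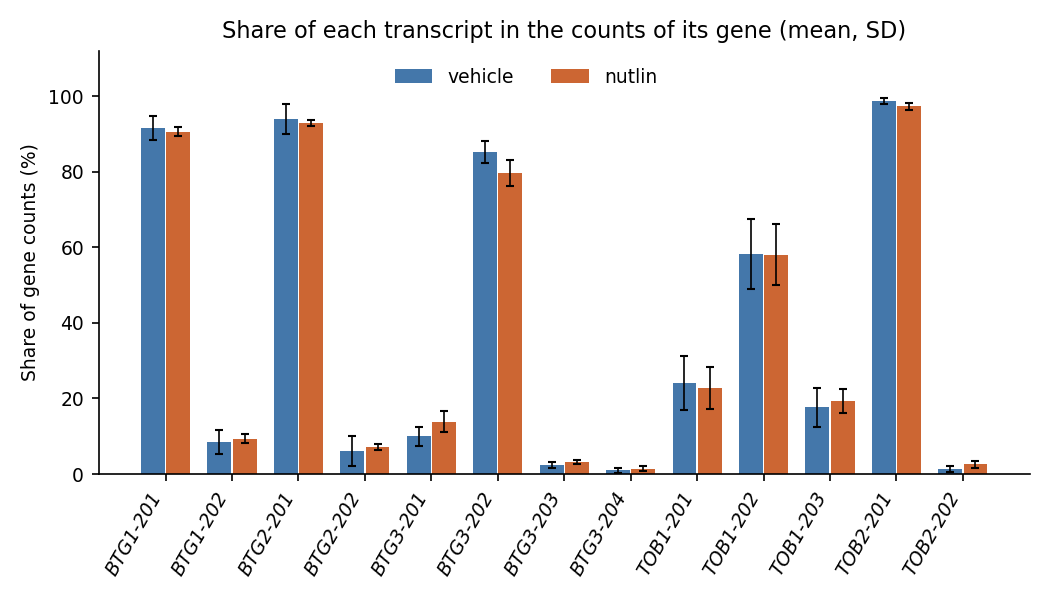
Share of each of the 13 tested transcripts in the estimated counts of its gene, as means with SD over 10 vehicle and 10 nutlin samples. BTG3-202 goes from 85.1% to 79.7% and BTG3-201 from 9.97% to 13.8%, whereas the shares within BTG1, BTG2 and TOB1 differ by less than their SD in vehicle.

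The lncRNAs that overlap a member or start within 5 kb of it were described next. BTG1-DT, the lncRNA that starts divergently from the BTG1 promoter printed above, was at 0.428, 0.727 and 1.15 CPM (lowest, median, highest) in vehicle and at 4.01, 4.72 and 5.81 CPM in nutlin. The groups did not overlap. Its LFC was 2.68 ± 0.132 SE (edgeR QL FDR = 3.90e-17), beside 0.98 ± 0.0614 for BTG1, and the difference between the 2 was not tested. In the GENCODE annotation, BTG1-DT shares 274 exonic bases with BTG1 on the other strand. They lie in the transcript BTG1-DT-202, which starts inside BTG1, at 92145573, and not at the RefSeq start. The strand setting of the quantification is not given in the sources used here. The transcript BTG1-DT-201, which shares no exonic base with BTG1, held a mean of 5.56 counts per vehicle sample and 52.6 per nutlin sample.

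BTG2-DT, the divergent lncRNA of BTG2, shares no exonic base with it. It was at 0.184, 0.464 and 0.902 CPM in vehicle and at 0.898, 1.83 and 2.36 CPM in nutlin, with 9 of 10 nutlin samples above all vehicle samples. BTG2-DT rose with an LFC of 1.93 ± 0.209 SE (edgeR QL FDR = 2.42e-09), beside 3.74 ± 0.0475 for BTG2. Both genes of this promoter thus rose, on means of 7.25 and 28.2 counts for the lncRNA.

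TOB1-AS1, on the strand opposite TOB1, also rose, from 0.865, 1.24 and 1.78 CPM (lowest, median, highest) to 3.95, 5.92 and 6.99 CPM, without overlap of the groups. Its LFC was 2.14 ± 0.127 SE (edgeR QL FDR = 3.95e-15). It shares 281 exonic bases with TOB1, and the transcript TOB1-AS1-204, which shares none, held a mean of 1.70 counts in vehicle and 14.4 in nutlin. BTG3-AS1, which shares 278 exonic bases with BTG3, rose by an LFC of 0.25 ± 0.0893 SE (edgeR QL FDR = 0.0162), beside 0.28 for BTG3. Its groups overlapped, from 2.92, 3.73 and 4.03 CPM (lowest, median, highest) in vehicle to 3.39, 4.40 and 5.12 CPM in nutlin. Of its nutlin samples 7 lay above all vehicle samples and 2 below the vehicle median.

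LINC01619 shares 503 exonic bases with BTG1 on the same strand, so that its counts and those of BTG1 cannot be fully told apart. It had means of 7.98 and 16.3 counts and an LFC of 0.99 ± 0.202 SE (edgeR QL FDR = 9.58e-05). The neighbours of the 4 genes that rose were thus higher after nutlin. A further annotated lncRNA beside TOB2 was not analysed here. Among all lncRNAs tested, 32% were called as higher after nutlin, and their median LFC was 0.50, above that of BTG3-AS1.

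**Figure D4:**
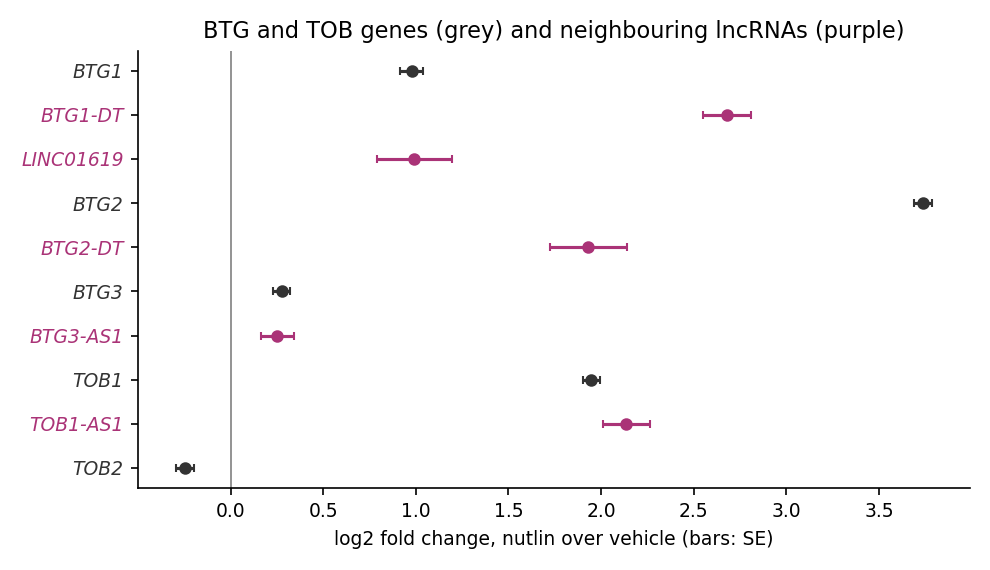
LFC (nutlin over vehicle, edgeR QL) of the 5 genes in grey and of the neighbouring lncRNAs in purple, with SE over 10 samples per condition. The 5 lncRNAs lie between 0.25 (BTG3-AS1) and 2.68 (BTG1-DT), and TOB2 lies at -0.25.

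The machinery through which the family acts was described with lists of genes, all of them mRNAs. As a background for the counts in these lists, 32.4% of all mRNAs tested were called as higher and 38.5% as lower. The counts were not tested against these shares. The LFC of the listed genes are without an offset for effective length, so that levels in TPM can move by other amounts. Of the 12 CCR4-NOT subunits, 2 rose, 7 fell and 3 did not pass the test, with a median LFC of -0.21. CNOT6L and CNOT6, deadenylase subunits of the exonuclease-endonuclease-phosphatase type, rose by LFC 0.57 ± 0.0628 SE and 0.43 ± 0.0382. CNOT8, one of the deadenylases bound by the BTG domain, was at 34.4 ± 2.26 TPM (SD) in vehicle and 22.2 ± 1.49 TPM in nutlin (LFC -0.79 ± 0.0380 SE, edgeR QL FDR = 2.00e-17). Its paralogue CNOT7, named here outside the rule for named genes and after its value was seen, went from 87.1 ± 6.54 to 56.2 ± 3.85 TPM (LFC -0.73 ± 0.0409 SE). Among these subunits CNOT9 fell most, with an LFC of -1.30 ± 0.0709. In TPM, CNOT9 went from 20.7 ± 1.97 to 11.5 ± 1.68 (SD), a smaller relative decrease than in mean CPM (39.1 to 15.9). Both deadenylases that the BTG domain binds were thus lower after nutlin, while 4 of the 5 family genes were higher.

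Among the 8 other deadenylases, 1 rose, 4 fell and 3 did not pass, with a median LFC of -0.06. PAN2, the catalytic subunit of the PAN2-PAN3 deadenylase, rose by LFC 0.69 ± 0.0354, whereas TOE1 and PARN had an LFC of -0.54 ± 0.0588 and -0.28 ± 0.0454. Of the 8 poly(A)-binding proteins and regulators, 1 rose (PABPC1L, LFC 0.15), 4 fell and 3 did not pass, with a median of -0.22. PAIP1, which binds PABPC1, and PABPN1, the nuclear poly(A)-binding protein, fell with an LFC of -0.78 ± 0.0362 and -0.66 ± 0.0342. PABPC1 itself, the partner of TOB proteins and also named outside the rule, was at 880 ± 54.4 TPM in vehicle and 875 ± 46.4 TPM in nutlin (LFC -0.02 ± 0.0324 SE, edgeR QL FDR = 0.652).

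RNA-binding proteins that bring CCR4-NOT to mRNAs moved in both directions. Of 17 such adaptors, 7 rose, 5 fell and 5 did not pass, with a median LFC of 0.06. CPEB2, a cytoplasmic polyadenylation element binding protein, and ZFP36, which binds AU-rich elements, rose by LFC 2.30 ± 0.101 and 2.27 ± 0.155. ZFP36 remained low, at 0.839 ± 0.287 TPM in vehicle and 5.13 ± 1.09 TPM in nutlin. PUM2, a Pumilio protein, and SAMD4B, a Smaug protein, fell with an LFC of -0.76 ± 0.0759 and -0.47 ± 0.0357.

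Decapping and decay from the 5′ end follow deadenylation. Of the 9 genes of this list 2 rose, 6 fell and 1 did not pass, with a median LFC of -0.25. The decapping enzyme DCP2 fell with an LFC of -1.27 ± 0.0579 and LSM1, a subunit of the LSM ring, with -0.66 ± 0.0581. DCP2 went from 17.4 ± 1.92 to 10.3 ± 1.72 TPM (SD), a smaller relative decrease than in mean CPM (106 to 44.1). DCP1B, a cofactor of decapping, rose by LFC 1.63 ± 0.0636 and the exonuclease XRN1 by 0.18 ± 0.0621. Of the 6 other binding partners 2 rose, 3 fell and 1 did not pass, with a median of -0.0010. ERBB2, from which TOB takes its name, rose by LFC 0.89 ± 0.0558 and SMAD5 by 0.46 ± 0.0713, while PRMT1, an arginine methyltransferase bound by BTG1 and BTG2, and SMAD1 fell with -0.86 ± 0.0482 and -0.51 ± 0.0584. SMAD5 went from 17.2 ± 4.04 to 34.1 ± 3.72 TPM (SD), a larger relative rise than in mean CPM (74.4 to 102).

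Most of the proliferation genes fell. Of 12 genes, 10 fell and 2 rose, with a median LFC of -1.85 against -0.0056 over all mRNAs. The mitotic cyclins CCNB1 and CCNA2 fell most, with an LFC of -3.06 ± 0.0619 and -2.97 ± 0.172. The D-type cyclins CCND2 and CCND1 rose by LFC 1.30 ± 0.247 and 0.45 ± 0.0303, CCND2 from a low level of 0.113 ± 0.0736 TPM to 0.331 ± 0.150 TPM. CCND1, which BTG and TOB proteins are known to repress in other cells, went from 544 ± 64.5 to 671 ± 48.3 TPM, with no overlap of the groups in CPM.

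**Figure D5:**
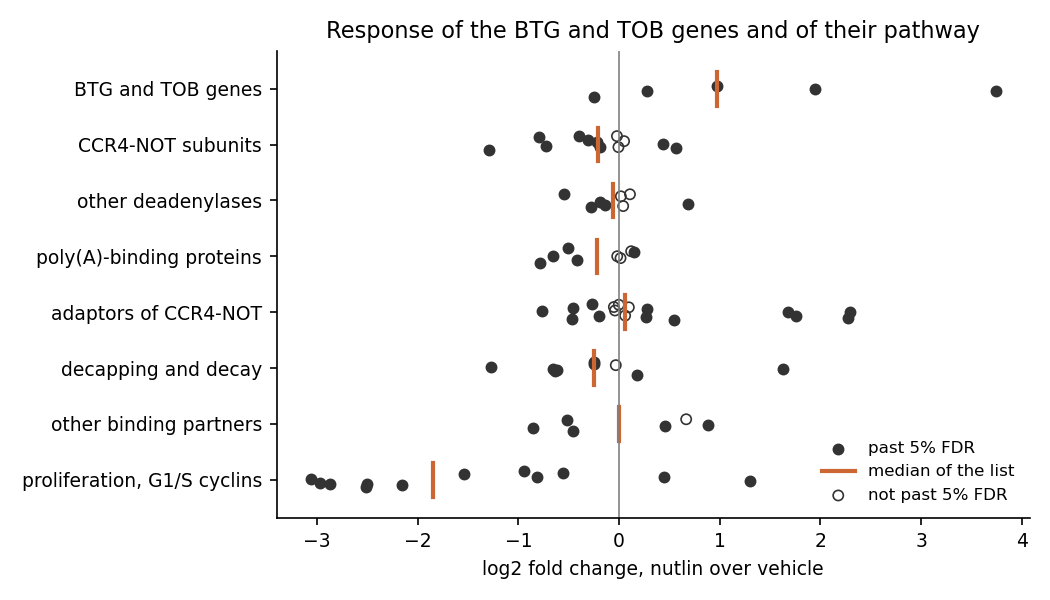
LFC (nutlin over vehicle) of the BTG and TOB genes and of 7 lists of related genes; filled points passed 5% FDR in the edgeR QL test, open points did not, and orange bars are the medians. The median is 0.98 for the BTG and TOB genes and -1.85 for the proliferation genes, with the other lists between -0.25 and 0.06.

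Lastly, the genes with the profile most like that of each member were sought among the 11390 genes whose mean reached 5 CPM, by the root mean square distance between centred log2(CPM + 0.5) values over the 20 samples. The genes closest to BTG2 were ARC, INKA2 and NUPR1, at distances of 0.128 to 0.145 and with an LFC of 3.68, 3.82 and 4.03. Those closest to TOB1 were DUSP14, SRGAP3 and GPR50 (0.0989 to 0.115, LFC 1.93, 1.85 and 2.03), and those closest to BTG1 were ZNF195, KLF10 and ZNF641 (0.115 to 0.120, LFC 0.98, 1.01 and 1.03). BTG3 was closest to SCHIP1, EIF4B and GATC (0.0733 to 0.0840) and TOB2 to SLC39A1, PALM and VPS4A (0.0514 to 0.0681). No member was among the closest genes of another. The distances describe these 20 samples and rest mainly on the difference between the conditions.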

How the data were processed

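RNA-seq of NGP cells was analysed from the deposited values of 20 samples, grouped by the treatment in their labels. The authors sequenced stranded poly(A) libraries as paired-end reads and quantified them with kallisto v0.42.4 on GRCh38 transcripts of Ensembl. The estimated counts deposited by the authors are read pairs assigned to 198968 transcripts, without normalization. The TPM values deposited by the authors are these counts scaled by effective length and library size. The effective lengths, in bases, are those of the authors' kallisto runs and were used in 2 alternatives.

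Transcripts were matched by identifier to GENCODE release 44 (191106, 96.05%), and 7862 were left out. The matched share of counts lay between 96.7% and 96.8% in vehicle and between 95.7% and 95.9% in nutlin. Estimated counts were summed per gene and rounded. mRNAs and lncRNAs that had 1 count or more in both conditions were fitted together with edgeR 4.0.16 (quasi-likelihood F-test, TMM, condition only, Benjamini-Hochberg at 5% FDR) in R 4.3.3. SEs were derived from the LFC and its F statistic. Permutation tests used 100000 resamples, or all sign flips or splits where called exact. No 2 samples held identical counts. The scripts were tested on simulated data. The rest was done in Python 3.11.15 (scipy 1.17.1, numpy 2.4.6, matplotlib 3.10.9, pandas 2.3.3).

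The family members and gene lists were chosen with earlier results of these data known. The genes named were the 5 members, up to 2 called genes with the largest positive and 2 with the largest negative LFC per list, the neighbours within 5 kb, and the 3 most alike genes per member. CNOT7 and PABPC1 were added. Results of 2 further genes that the rule names are not reported here. Replicate numbers in the labels run over 8 shared values, with no statement that they pair samples. Alternatives were DESeq2 1.42.0 and its size factors, limma 3.58.1 voom, filterByExpr (minimum count 10), the replicate block, effective-length offsets, protein_coding transcripts only, unmatched transcripts in the library sizes, other pseudocounts and units, and each sample left out. For transcript shares, leaving out samples was added after the data were seen.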

Additional observations from a re-analysis of the deposited data

Results flagged for a closer look

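The share of TOB1-203 in the TOB1 counts of vehicle replicate 11 was 31.7%, against 19.1% in the next highest vehicle sample. The gap was 0.704 of the range of the 10 vehicle samples, above Dixon's critical value of 0.466. This was the only outlier among 58 groups of samples checked (levels of the 5 genes and their neighbours, and the shares of 13 transcripts), where chance flags about 1 in 20 groups. The TPM of TOB1 was also highest among the vehicle samples in this replicate, at 18.6 TPM, whereas the CPM of the gene was 22.3, within the range of the other vehicle samples. Without vehicle replicate 11 the share of TOB1-203 was 3.24 points higher in nutlin than in vehicle, in place of 1.69, and passed the test (adjusted p = 0.0367 in place of 0.508, exact permutation test). The sample was left out after its value was seen.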

How the results depend on the processing

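Of 584 alternative values, 544 had the same direction and the same side of the threshold as the reported result. All LFC of the 5 genes and all 10 differences in response were among these. Leaving out 1 sample at a time gave an LFC of 0.95 to 1.02 for BTG1, 3.72 to 3.78 for BTG2, 0.27 to 0.32 for BTG3, 1.93 to 1.98 for TOB1 and -0.25 to -0.20 for TOB2. The other settings gave 0.96 to 1.05, 3.72 to 3.82, 0.27 to 0.35, 1.92 to 2.02 and -0.25 to -0.16, with TOB2 closest to 0 under the effective-length offset. The number of genes called was between 13131 (filterByExpr, 16347 genes tested) and 16385 (DESeq2 size factors), against 16275.

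The replicate block over the 8 shared numbers changed no call of the 5 genes (14276 genes called, 14992 in the same 16 samples with no block). Deviations of same-numbered samples correlated at 0.0035 on average (-0.048 to 0.077), and 1 of the 16 samples correlated best with its own number, so the numbers were not taken as pairing. For transcript shares, the 16 samples gave the same changes with and without the block and none passed: BTG3-202 -5.25 points, BTG3-201 3.69, BTG3-203 0.620, TOB2-201 -0.972 and TOB2-202 0.972 (adjusted p between 0.102 and 0.322 in the exact paired test). BTG2-201 was then at 0.312 and BTG2-202 at -0.312 points, the opposite sign of a change that had not passed. The calls for BTG3 and TOB2 shares passed in the 20 samples and not in these 16. Leaving out 1 sample at a time, added after the data were seen, gave changes of 0.571 to 0.865 points for BTG3-203, which lost its call in 12 of 20 cases, of 1.12 to 3.24 for TOB1-203, which passed without vehicle replicate 11, of -2.35 to 1.40 for TOB1-202 and of -2.80 to 0.020 for TOB1-201. The calls for BTG3-201, BTG3-202 and both TOB2 transcripts, whose shares mirror each other, held in all 20 cases. As a share of TPM, BTG3-203 changed by 1.98 points and did not pass.

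With protein_coding transcripts only, the mean log2 ratio of levels was -0.084 for TOB1 over TOB2 and -0.50 for BTG1 over BTG2 in vehicle, and -0.042 for TOB1 over BTG3 and -0.35 for BTG1 over TOB2 in nutlin. Short non-coding transcripts weigh heavily in TPM. Depth limits the transcripts and lncRNAs with means under 10 counts.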
